A study of Homo sapiens with 10 samples.

Results

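H3K4me1 regions around protein-coding start sites, shared by the breast cancer cell lines SKBR3 and BT474, were examined. Members were chosen by the cover itself: the bases inside an H3K4me1 island in all 4 libraries were kept, and a run of at least 200 bp was a member when it lay within 2 kb of a start site of a protein-coding transcript (hg19). Of 49616 regions common to the 4 libraries, 11709 were members, and the other 37907 lay farther from start sites. The members spanned 34.9 Mb and the distal regions 102 Mb.

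H3K4me1 had been mapped by ChIP-seq in asynchronous cells with 2 libraries per line, with 15097245 to 18714089 reads in 70251 to 96293 islands each. HER2 had been mapped by ChIP-exo in the same lines after 3 hours with vehicle (H2O) or with EGF at 100 ng/ml, with 1 peak list per line and treatment, so EGF and vehicle could not be compared against replicate error. The HER2 antibody lots differed between the lines. Both lines carry an amplified ERBB2 locus, and serum was not withdrawn. The labels of the H3K4me1 samples name no EGF, whereas the text of the study describes EGF-treated cells for this mark. Nothing says whether the H3K4me1 replicates were separate cultures, so p-values between the lines measure the spread between these libraries, which may be technical.

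Monomethylation of lysine 4 on histone H3 is best known from enhancers, but it also lies on the shoulders of active promoters, where the start itself carries trimethylation of the same lysine. Many start sites lie in CpG islands, stretches where the CG dinucleotide has not been depleted, and such promoters are used in most tissues. Start sites outside CpG islands more often serve tissue-restricted genes and more often hold a TATA box.

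Each of 19756 genes was given 1 representative start (MANE Select for 18878 of them) and put in 1 of 5 classes. The start was covered by a common region at 878 genes (4.44%). At 2472 genes (12.5%) it was bare but flanked within 2 kb on both sides. A region lay upstream only at 1383 genes (7.0%) and downstream only at 2953 genes (14.9%), and 12070 genes (61.1%) had none. Since these classes follow from the cover that selected the members, their counts are a description. The counts depend on the settings, with 319 covered starts and 523 flanked on both sides when only islands at or above the median read density were kept, and 1052 flanked on both sides within 1 kb.

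The DNA at the covered and the flanked starts looked different. Shown here are the 150 bases just upstream of 3 covered starts, with each CG dinucleotide in capitals (GRCh37, 5' to 3' on the strand of the gene). TAS1R3 encodes a subunit of the sweet and umami taste receptors, SLC12A3 the thiazide-sensitive salt transporter of the kidney, and EPGN the EGF family ligand epigen.
TAS1R3, chr1:1266510-1266659, plus strand: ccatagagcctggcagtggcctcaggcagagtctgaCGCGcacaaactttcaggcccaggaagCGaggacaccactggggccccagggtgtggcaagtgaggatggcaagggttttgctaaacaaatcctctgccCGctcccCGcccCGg
SLC12A3, chr16:56898969-56899118, plus strand: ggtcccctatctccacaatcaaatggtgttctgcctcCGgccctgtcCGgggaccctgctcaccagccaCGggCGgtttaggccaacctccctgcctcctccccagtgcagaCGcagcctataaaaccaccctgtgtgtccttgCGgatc
EPGN, chr4:75174037-75174186, plus strand: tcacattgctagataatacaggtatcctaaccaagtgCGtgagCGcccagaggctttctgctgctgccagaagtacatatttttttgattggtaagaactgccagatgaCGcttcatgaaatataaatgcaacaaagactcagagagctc
The next 3 stretches are from starts flanked on both sides. PSMA3 encodes a proteasome subunit, SOS1 an exchange factor that activates RAS, and PRKCH a protein kinase C isoform.
PSMA3, chr14:58711411-58711560, plus strand: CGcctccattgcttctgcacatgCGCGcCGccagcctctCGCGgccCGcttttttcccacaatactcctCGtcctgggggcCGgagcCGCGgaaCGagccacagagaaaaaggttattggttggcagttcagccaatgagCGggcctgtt
SOS1, chr2:39348193-39348342, minus strand: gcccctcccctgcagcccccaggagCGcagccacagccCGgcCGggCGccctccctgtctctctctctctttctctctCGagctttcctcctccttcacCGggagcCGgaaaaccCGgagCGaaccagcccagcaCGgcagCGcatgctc
PRKCH, chr14:61788147-61788296, plus strand: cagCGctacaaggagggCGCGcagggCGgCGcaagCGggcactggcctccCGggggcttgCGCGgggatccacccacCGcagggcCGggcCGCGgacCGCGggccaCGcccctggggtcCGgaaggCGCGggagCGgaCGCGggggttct
The covered starts shown held 6, 6 and 3 CG dinucleotides and the flanked starts 13, 11 and 22. These examples were taken from the gene lists used below for a CpG content near the median of their class. They therefore illustrate the difference and do not test it. Over all covered starts, the median in this stretch was 4 CG dinucleotides (quartiles 2 and 11), against 15 (12 and 20) at starts flanked on both sides and 10 (3 and 17) at starts with no region.

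Along the start site, H3K4me1 cover formed a dip with a shoulder on either side in every library. At the start itself, 10.5% and 12.4% of the start sites had an island in SKBR3 (mean 11.5% ± 1.35, SD, n = 2), and 15.9% and 14.8% in BT474 (15.3% ± 0.812, SD, n = 2). Downstream, cover rose to a maximum of 36.6% and 37.6% in the SKBR3 libraries, at 1850 and 1800 bp, and to 47.4% and 46.4% in the BT474 libraries, at 1500 and 1450 bp. Upstream the maxima were lower, at 28% and 29.5% in SKBR3 and 34.9% and 33.4% in BT474. The dip was thus deep in both lines, and the downstream shoulder was the taller in all 4 libraries. The cover at the start was 0.310 ± 0.0304 of the downstream maximum in SKBR3 and 0.327 ± 0.0122 in BT474 (SD, n = 2 each), a difference within the spread between replicates. The downstream maximum exceeded the upstream maximum 1.27- to 1.31-fold in SKBR3 and 1.36- to 1.39-fold in BT474, ranges that did not overlap. With 2 libraries against 2, the smallest p an exact two-sided permutation test allows is 0.333.

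**Figure D1:**
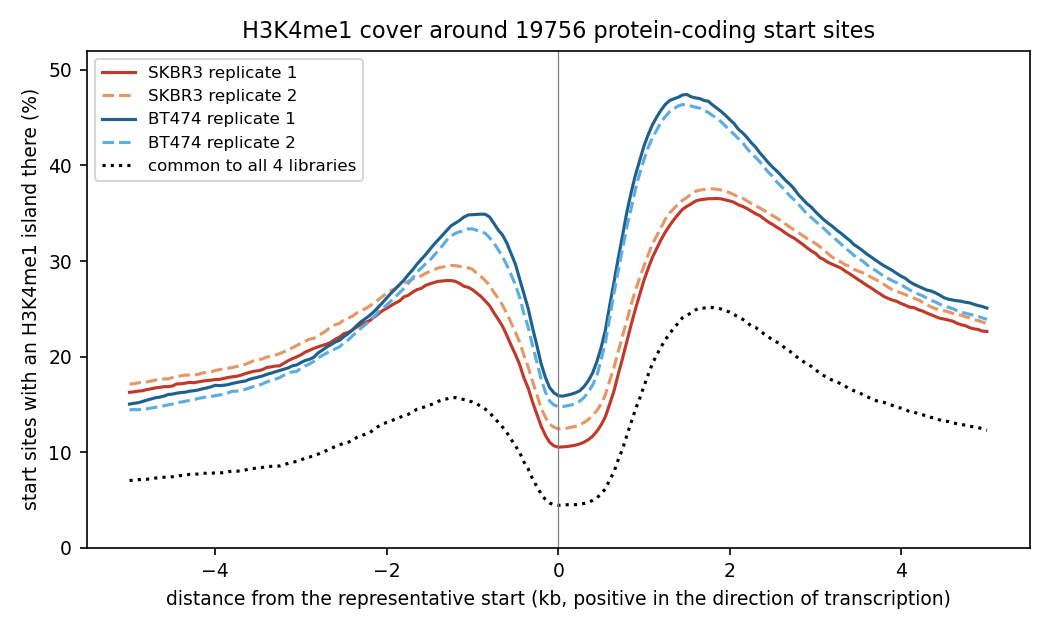
Percentage of protein-coding start sites lying in an H3K4me1 island (vertical axis) at each distance from the representative start (horizontal axis, kb), for 2 SKBR3 libraries (red and orange), 2 BT474 libraries (blues) and the bases common to all 4 (dotted). Every library dips to between 10.5% and 15.9% at the start and is highest downstream, at 36.6% to 47.4%.

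Among the 2472 starts flanked on both sides, the bare stretch between the flanking regions had a median length of 1600 bp (quartiles 1200 and 2200). The upstream region ended a median of 624.5 bp before the start and the downstream region began 939 bp after it, and the downstream region was the farther at 1755 of these starts (71.0%). Where a region lay on the downstream side alone, it began a median of 1017 bp after the start. The islands bound what could be seen, since no gap between neighbouring islands was under 800 bp in any library, so a narrower dip would have been bridged and counted as cover.

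The member regions had a median width of 2000 bp (quartiles 1200 and 3400), as had the distal regions (1400 and 3200). Regions of 10 kb or more made up 3.54% of members (415) and 1.89% of distal regions (715). Of the members, 3059 held a transcript start, 2570 came within 500 bp of one, 3412 lay 501 to 1000 bp away, 1808 at 1001 to 1500 bp and 860 at 1501 to 2000 bp. Just outside the limit, 672 common regions lay 2001 to 2500 bp from a start. Island read density (reads per kb of island, scaled to 1000000 island reads per library) had medians at members of 2.82 and 2.81 in SKBR3 and 3.04 and 3.15 in BT474, close to the 2.81, 2.76, 2.99 and 3.07 at distal regions.

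CpG content separated the covered from the flanked starts. Within 250 bp of the start, the observed over expected CpG ratio had a median of 0.347 at covered starts (quartiles 0.206 and 0.717) and 0.861 at starts flanked on both sides (0.770 and 0.934), against 0.777 over all genes. A start was called CpG-rich with a ratio of at least 0.6 and a GC content of at least 50%. By that measure 281 of 878 covered starts were CpG-rich (32.0%, 95% Wilson interval 29.0 to 35.2), compared with 94.1% (93.1 to 95) of those flanked on both sides, 82.2% upstream only, 91.1% downstream only, 57.2% (56.4 to 58.1) with no region and 67.5% of all. These intervals cover counting error only, and neighbouring genes are not independent. The contrast was larger in both SKBR3 libraries than in both BT474 libraries. With the classes drawn from single libraries, the median ratio of starts flanked on both sides exceeded that of covered starts by 0.439 and 0.366 in SKBR3 and by 0.176 and 0.181 in BT474, and by 0.515 with the common regions.

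Read the other way, 2.11% of CpG-rich starts were covered and 17.4% flanked on both sides, and of CpG-poor starts 9.31% were covered and 2.28% flanked on both sides. In single libraries the dip was seen at the CpG-rich starts. Their cover at the start was 6.11% and 8.13% in SKBR3 and 13.8% and 12.7% in BT474, and 1 kb downstream it was 31.7%, 33.6%, 52.9% and 51.2%. The ratio of start to 1 kb downstream was therefore 0.192 to 0.260 at CpG-rich starts. At CpG-poor starts this ratio was 0.978 to 1.05, with 19.7%, 21.4%, 20.3% and 19.1% of starts covered, so that no dip was seen in any of the 4 libraries and the 2 lines lay close together.

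**Figure D2:**
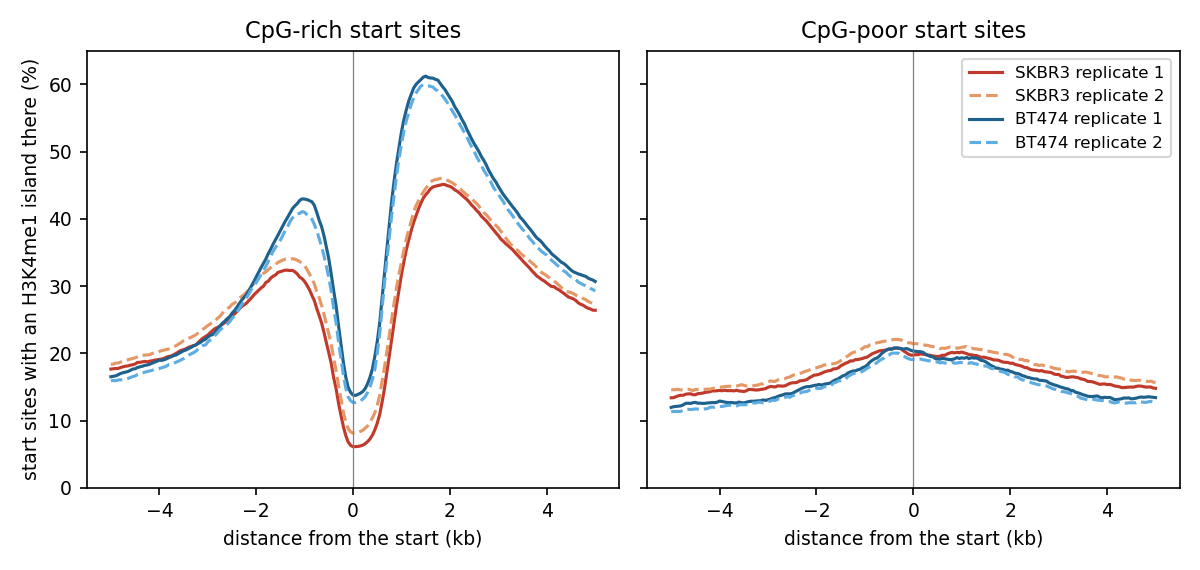
Percentage of start sites in an H3K4me1 island (vertical axis) by distance from the start (horizontal axis, kb, positive downstream) in CpG-rich (left) and CpG-poor start sites (right), with 1 line per library. At CpG-rich starts cover at the start is 0.192 to 0.260 of that 1 kb downstream, while at CpG-poor starts the curves are flat across the start, at 19.1% to 21.4%.

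Start sites that face a second gene were also examined. Of 1847 starts with a divergent protein-coding start within 1 kb upstream, 28.4% (95% Wilson interval 26.4 to 30.5) were flanked on both sides and 1.30% were covered. Other starts were flanked on both sides at 10.9% (10.4 to 11.3) and covered at 4.77%. Among CpG-rich starts alone the shares flanked on both sides were 29.5% (27.4 to 31.7) for head-to-head starts and 15.7% (15.0 to 16.3) for the rest. Both starts of a pair were counted and can share their flanking regions, so the intervals for head-to-head starts are too narrow. A region downstream of the partner start can also count as the upstream flank, and its part in these shares was not tested.

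Short sequence motifs from 250 bp upstream to 50 bp downstream of the start were counted on both strands as exact letters, none of which contains another. The TATA box (TATAAA) was found at 15.0% of covered starts (95% Wilson interval 12.8 to 17.6), 3.72% (3.04 to 4.54) of starts flanked on both sides, 11.9% of starts with no region and 9.76% of all. The letters of AP-1, the FOS and JUN dimer (TGANTCA), were found at 9.79% of covered starts (8.0 to 11.9), 3.24% (2.61 to 4.01) of starts flanked on both sides and 5.45% of all. Likewise AGATAA, which GATA factors bind, was found at 9.68%, 3.36% and 7.18%, and the forkhead letters TGTTTAC at 3.87%, 1.70% and 2.49%. Starts with no region held them at 8.96% (8.46 to 9.48) and 2.64% (2.37 to 2.94), and both intervals overlapped those of covered starts (7.90 to 11.8 and 2.78 to 5.36). Motifs rich in C and G ran the opposite way. The GC box (GGGCGG) was found at 41.9% of covered starts, 77.8% of starts flanked on both sides and 61.3% of all, the ETS letters (CCGGAAG) at 5.13%, 23.8% and 14.0%, and NRF1 (GCGCATGC) at 1.71%, 6.47% and 4.23%. The CCAAT box differed less, at 30.4%, 36.7% and 35.9%. The share of CpG-rich starts moved with these counts (32.0% of covered starts, 94.1% of starts flanked on both sides), and its part in them was not tested.

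**Figure D3:**
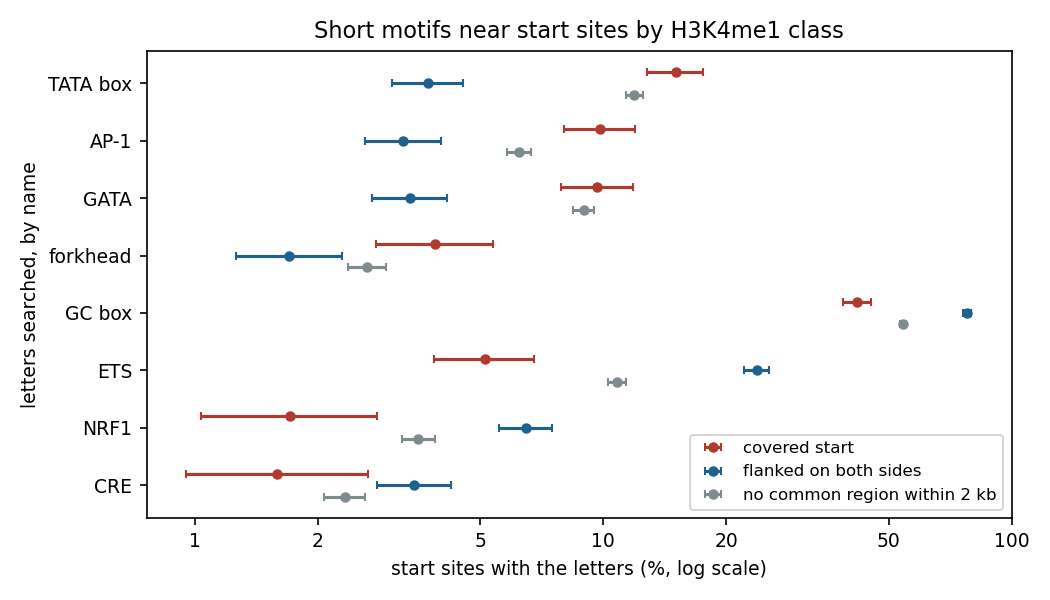
Percentage of start sites (horizontal axis, log scale) with each motif (vertical axis) for covered starts (red), starts flanked on both sides (blue) and starts with no common region (grey), with points as shares and bars as 95% Wilson intervals. TATA box, AP-1, GATA and forkhead letters are more frequent at covered starts (15.0%, 9.79%, 9.68% and 3.87%) than at starts flanked on both sides, and GC box, ETS, NRF1 and CRE letters less frequent.

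Gene classes differed widely in how many of their start sites had a common region. Over all genes the share was 38.9% (7686 of 19756), and 16 of the 27 lists examined lay above it. At the top stood the genes next to ERBB2 on 17q12 (11 of 14, 78.6%), fatty acid and sterol synthesis (13 of 18, 72.2%), luminal transcription factors (14 of 20, 70%) and proteasome subunits (27 of 39, 69.2%). The 11 genes on 17q12 share 2 stretches of overlapping islands at the amplified ERBB2 locus, so they are not 11 independent cases. ERBB signal transduction (22 of 33) and glycolysis (12 of 18) both stood at 66.7%, and cell cycle and DNA replication at 58.8% (20 of 34). At the bottom, no start of 53 protocadherins had a region (95% Wilson upper limit 6.76%), and 9 of 390 olfactory receptors (2.31%), 7 of 94 keratin-associated proteins (7.45%), 8 of 39 HOX genes (20.5%) and 128 of 508 zinc fingers named ZNF (25.2%) had one. Of markers of other cell types, 3 of 17 basal and mesenchymal markers (17.6%) and 3 of 18 blood and nerve lineage genes (16.7%) had one. Among them, the T cell genes CD3D and CD3E, HBB, GFAP and VIM were without a region. The 95% Wilson intervals of both shares contained the 38.9% of all genes, so neither list could be told apart from all genes. The lists were small, and the interval for the luminal transcription factors ran from 48.1 to 85.5%. CpG-rich starts made up 93.9% of ERBB signal transduction, 83.3% of glycolysis and 94.1% of the cell cycle list. They made up 1.03% of olfactory receptors and 0% of keratin-associated proteins, but 76.9% of HOX genes and 81.7% of zinc fingers. Among basal and mesenchymal markers 35.3% of starts were CpG-rich, and among blood and nerve lineage genes 27.8%. Of CpG-rich starts 51.8% had no region, and of CpG-poor starts 80.5%. The part of CpG content in the shares of the lists was not tested.

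The lists also differed in where the mark lay. Of 84 cytosolic ribosomal protein genes, 31 had a region downstream only, 18 on both sides and 1 upstream only, and the only covered start was RPL19 on 17q12. Of 78 mitochondrial ribosomal proteins, 21 were flanked on both sides, 17 downstream only and 7 upstream only, with none covered. Of 39 proteasome subunits, 9 were flanked on both sides and 14 downstream only, with only the immunoproteasome subunit PSMB8 covered. Of 48 subunits of respiratory complex I, 7 were flanked on both sides, 13 downstream only and 2 upstream only, and 26 had no region. Covered starts were few in these lists, as they were among all genes (4.44%) and among CpG-rich starts (2.11%). Immediate early genes, which respond to growth factors within minutes, instead had regions upstream only at 8 of 23 starts (MYC, FOS, JUN, JUNB, EGR1, EGR2, EGR4 and MCL1), with 3 downstream only, 3 on both sides and FOSB covered. Luminal transcription factors likewise had 8 of 20 upstream only, among them FOXA1, TFAP2C, XBP1, SPDEF, GRHL2 and ESR1. Over all genes, upstream only was less frequent than downstream only (7.0% against 14.9%). Keratins, which form the intermediate filaments of epithelia, had 6 of 55 starts covered (10.9%, against 4.44% of all), including KRT15, KRT23 and KRT3. Only 9.09% of keratin starts were CpG-rich, and among CpG-poor starts of all genes 9.31% were covered, close to the keratin share.

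**Figure D4:**
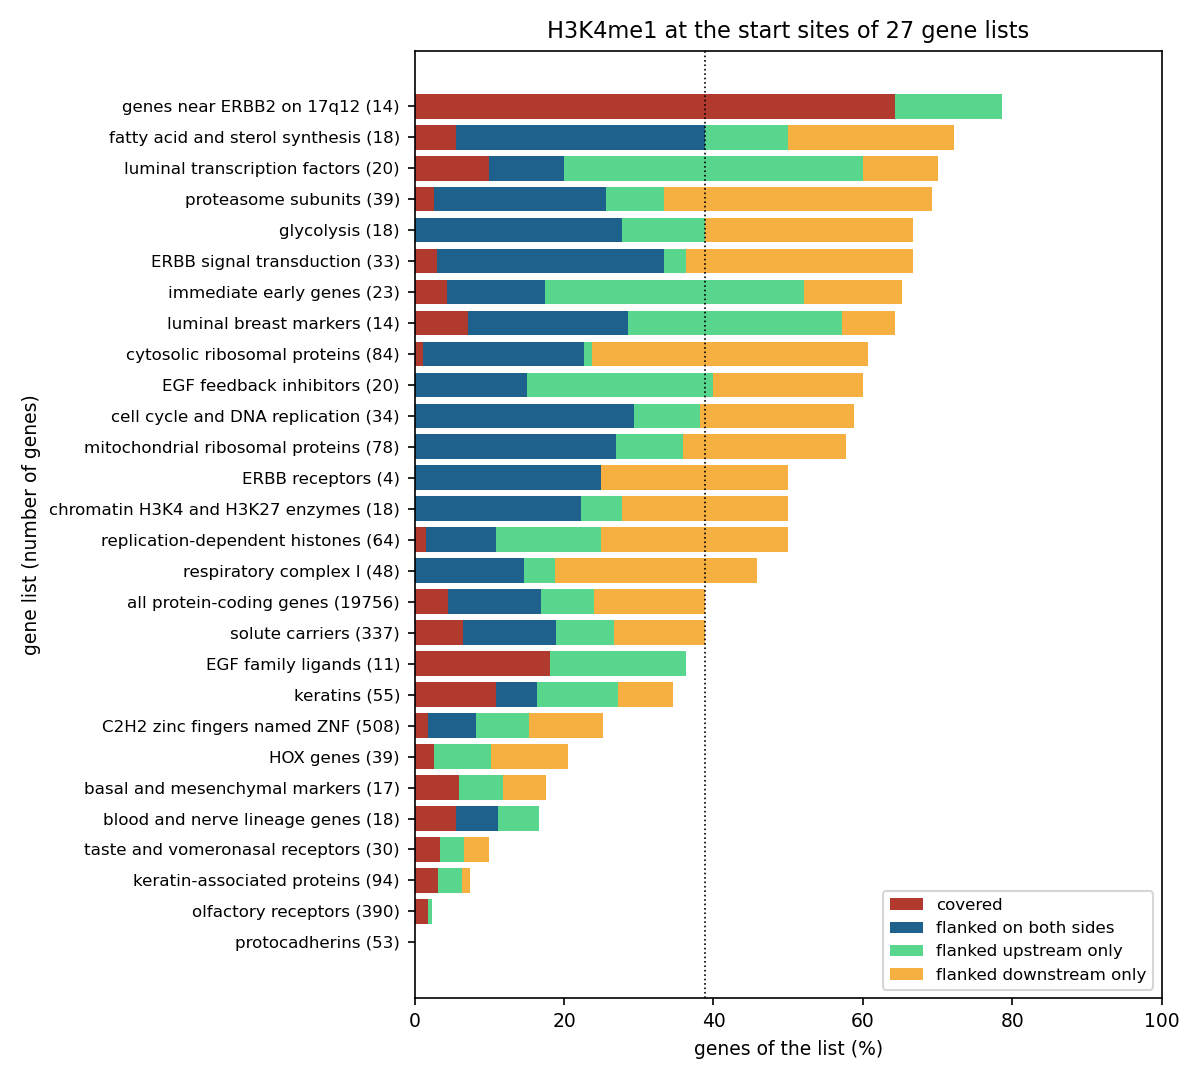
Percentage of each gene list (vertical axis, number of genes in brackets) with a covered start (red), a start flanked on both sides (blue), upstream only (green) or downstream only (orange), with the dotted line at 38.9% for all genes. The 17q12 genes are mostly covered (9 of 14), ribosomal protein and proteasome genes mostly flanked, and olfactory receptors and protocadherins nearly or wholly bare. The 11 genes on 17q12 with a region share 2 stretches of overlapping islands at the amplified ERBB2 locus.

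Of the ERBB receptors, the family to which HER2 itself belongs, ERBB2 was flanked on both sides, ERBB3 downstream only, and EGFR and ERBB4 had no common region. The start of ERBB2 (chr17, position 37856317) lay in a gap of 1200 bp between the pair of widest member regions in the genome. The upstream one (chr17:37751401-37856200, 104.8 kb) held the starts of NEUROD2, PPP1R1B, STARD3, TCAP, PNMT and PGAP3 and ended 117 bp before the ERBB2 start. The downstream one (chr17:37857401-37978600, 121.2 kb) began 1084 bp after it and covered MIEN1 and GRB7. In single libraries, ERBB2 was flanked on both sides in both SKBR3 libraries and covered in both BT474 libraries. The islands at ERBB2 had a read density on the same scale of 14.9 and 13.6 in SKBR3 and 19.3 and 19.8 in BT474, far above the medians of all members. This locus is amplified in both lines, and more copies of the DNA and more of the mark cannot be told apart here, since no input file was analysed. Other wide members lay at TRPS1 (65.4 kb) and FBXL20 (60.4 kb).

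Among ligands of the receptors, EGF and EPGN had covered starts and BTC and HBEGF an upstream region, while AREG, EREG, TGFA and NRG1 to NRG4 had none. Downstream of the receptors, the adaptor gene SHC1 was covered, MAP3K13, PRKCH and MAPK11 were flanked on both sides, and STAT3 downstream only. FOXA1, the pioneer factor of luminal cells, had its nearest region 1547 bp upstream of the start, and it was upstream only in all 4 libraries. MYC had a region ending 477 bp upstream, and its start was covered in both SKBR3 libraries and in neither BT474 library. No library had an island within 2 kb of the start of GATA3, CCND1 or PTGS2. The starts of EGFR, ERBB4 and CDKN1A each had an island nearby in 3 of the 4 libraries and so had no common region.

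Chromosomes differed in the share of genes with a member, from 59.3% on chromosome 14, 56.7% on chromosome 20 and 55.3% on chromosome 7 to 24.5% on chromosome 19 and 7.53% on the X chromosome. The share of covered starts was largest on chromosome 20 (8.18%), and no start of 262 on chromosome 18 was covered. Copy number was not measured, so its part in these shares was not tested.

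Reads were then compared between the lines. Islands overlapping in any library were merged, and the 37219 merged regions with an island in all 4 libraries were tested with edgeR on the deposited island read counts. Of these regions 11687 (31.4%) were higher in SKBR3 and 11369 (30.5%) higher in BT474 at an adjusted p under 0.05. Among the 10264 that held a member, 2539 (24.7%) were higher in SKBR3 and 3586 (34.9%) higher in BT474, with a median log2 ratio of SKBR3 over BT474 of -0.13, against 0.01 over all regions. With missing islands counted as 0, the order of these medians turned around, to -0.15 for regions with a member and -0.63 over 113995 regions. Genes with covered starts had a median log2 ratio of 0.07 (312 genes with a region higher in SKBR3 and 259 higher in BT474, of 878). Starts flanked on both sides had a median of -0.01, upstream only -0.18 and downstream only -0.29 (553 genes higher in SKBR3 and 1223 in BT474, of 2953). Since a merged region sums all reads of its islands, a ratio reflects both breadth and height of the mark.

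Of the 5 largest ratios in each direction, 9 are given. At TRAM1, a protein of the secretory translocon, 6721 and 6309 reads were counted in SKBR3 and 58 and 41 in BT474 (log2 ratio 7.08 ± 0.09, SE, adjusted p = 2.28e-08). The regions at ODAD4 and an ACLY start (log2 ratio 5.48), GPR37 (4.83) and MYC (4.68) were also higher in SKBR3. The MYC region was 210.2 kb wide and held 45374 and 44326 reads in SKBR3 and 2100 and 1513 in BT474. In the opposite direction, ZNF652 had 148 and 130 reads in SKBR3 and 7228 and 6052 in BT474 (log2 ratio -5.54 ± 0.08, SE, adjusted p = 2.28e-08). The region over CISD3, EPOP, PCGF2 and PSMB3 (-5.41), SKA2 (-5.35), SRCIN1 (-5.15) and CLTC (-5.11) followed, all on chromosome 17. In these 9 regions the libraries of the 2 lines did not overlap, which came with their choice for the largest ratios and is no separate evidence.

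**Figure D5:**
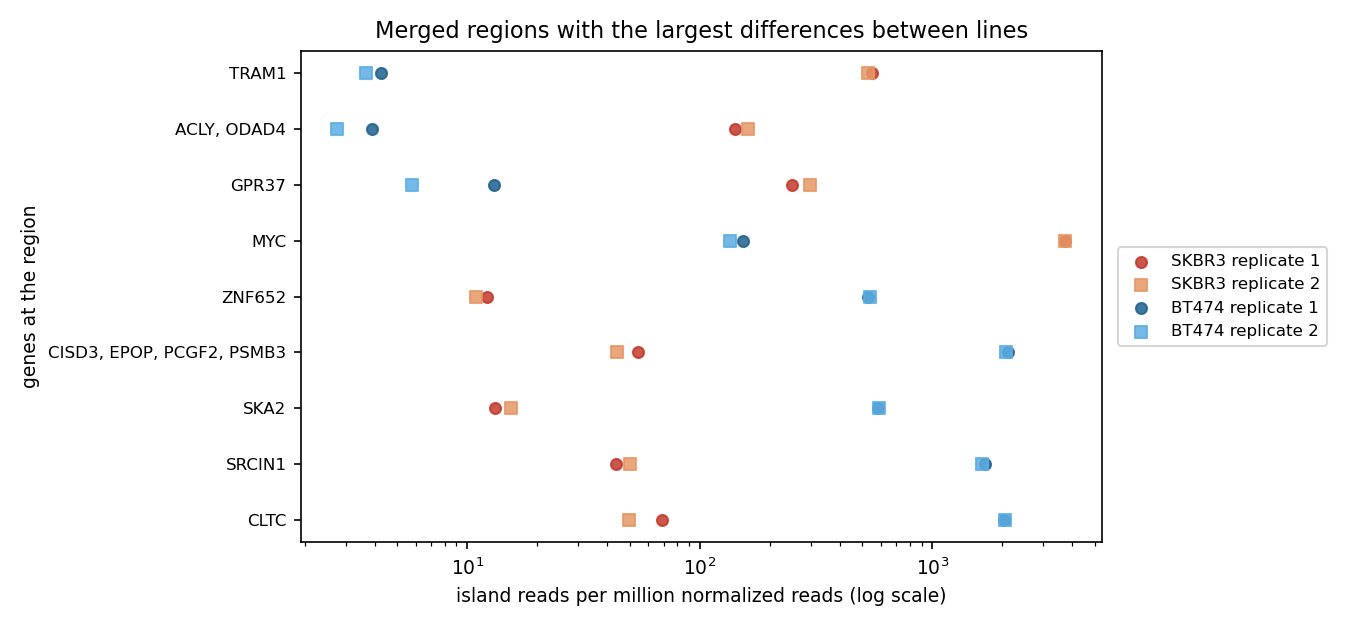
Normalised island read counts (CPM, horizontal axis, log scale) in 9 of the merged regions with the largest ratios (vertical axis, genes at the region), with 1 point per library. SKBR3 libraries (red and orange) and BT474 libraries (blues) lie far apart in each region, and replicates differ most at GPR37 in BT474 (CPM of 13.1 and 5.80).

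All 10 ratios were smaller once each library was scaled to its other merged regions within 1 Mb. The log2 ratio at SKA2 went from -5.35 to -0.63, at CLTC from -5.11 to -0.42 and at ZNF652 from -5.54 to -1.39. At TRAM1 it was 5.20, at MYC 2.81, at SRCIN1 -3.55 and at the region over PSMB3 -4.35. Copy number of a segment and the mark cannot be told apart in the unscaled values. With this scaling, 2163 of 10245 regions with a member were higher in SKBR3 and 3522 in BT474. Over all 37051 regions so scaled, 10689 were higher in SKBR3 and 10928 in BT474.

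Among genes of the fixed lists, the 2 merged regions that hold the 11 genes near ERBB2 were higher in BT474 (log2 ratio -0.89 ± 0.07 at ERBB2, adjusted p = 2.64e-05, locally scaled -0.36). FOXA1 (-1.48 ± 0.10), TFAP2C (-1.24 ± 0.07), JUNB (-1.98 ± 0.10), FASN, the fatty acid synthase (-0.98 ± 0.07), and AURKA, a mitotic kinase (-1.70 ± 0.06), were higher in BT474 (SE, adjusted p from 5.52e-07 to 1.94e-05, edgeR). ATF3 (2.30 ± 0.14), STAT5B (2.88 ± 0.15), STAT3 (1.96 ± 0.14), TOP2A (2.16 ± 0.08) and the keratin genes KRT23 (2.28 ± 0.06) and KRT15 (1.74 ± 0.06) were higher in SKBR3 (adjusted p from 1.88e-07 to 1.44e-05, edgeR). Locally scaled, the ratios shrank to -0.43 at FOXA1, -0.49 at TFAP2C, 1.09 at ATF3, 1.37 at STAT5B and 0.46 at STAT3, and that of KRT15 turned to -0.23. Of 19 keratin genes in 17 merged regions, 13 had a region higher in SKBR3 and 4 higher in BT474, with a median of 0.66. Of 27 proteasome genes, 2 had a region higher in SKBR3 and 13 in BT474 (median -0.62), and of 45 mitochondrial ribosomal protein genes in 44 merged regions 3 and 22 (median -0.47). Over all regions with a member, 24.7% were higher in SKBR3 and 34.9% in BT474. Locally scaled medians of these lists were 0.44, -0.63 and -0.55.

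A small share of the HER2 peaks lay inside the members, which spanned 34.9 Mb. Peaks per megabase of the whole genome were not counted, so these shares show neither avoidance nor preference of members by HER2. A peak was counted when its midpoint lay in a member. In SKBR3, 35 of 2596 vehicle peaks (1.35%, 95% Wilson interval 0.971 to 1.87) and 37 of 2520 EGF peaks (1.47%, 1.07 to 2.02) did so. In BT474 the numbers were 137 of 8559 vehicle peaks (1.60%, 1.36 to 1.89) and 388 of 29326 EGF peaks (1.32%, 1.20 to 1.46). The intervals of the 4 shares overlapped, although the BT474 EGF list was by far the longest. Per megabase, members held 1.00, 1.06, 3.92 and 11.1 peaks in these 4 lists and distal regions 0.878, 1.22, 3.44 and 10.3, giving ratios of 1.14, 0.868, 1.14 and 1.08. The bare gaps between flanking regions held 5, 4, 17 and 43 peaks, or 1.38, 1.1, 4.69 and 11.9 per megabase. Peak scores, comparable only within a list, had medians inside members of 36, 145.5, 64.5 and 56.75 and outside of 35, 129, 64.5 and 55.5.

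Overlapping peaks of the lists were joined into 433 loci in 414 member regions. Of these loci 298 were in 1 list, 110 in 2, 21 in 3 and 4 in all 4 lists. The BT474 EGF list alone accounted for 253 loci, and 37 loci were found in both lines. Within 2 kb of a representative start lay 138 loci, 61 upstream and 77 downstream, but only 24 lay within 500 bp. By class of that start, 70 loci were at starts flanked on both sides, 29 downstream only, 27 covered and 12 upstream only. Of all 7686 genes with a region, 2472, 2953, 878 and 1383 were in these classes. Member bases were not counted by class or by side of the start, so no preference of HER2 can be read from these counts. Of the kinase gene MAP3K13, a peak of the EGF lists of both lines lay 1334 bp downstream of the start inside the downstream region.

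Of the 4 loci in all lists, 3 lay at MXRA8, a matrix remodelling protein, PRDX6, a peroxiredoxin, and RALGDS, a RAS effector. Their DNA is shown because it turned out to be repetitive at MXRA8 and RALGDS, with 200 bases at the centre of each locus on the plus strand of GRCh37. Capitals would mark the letters CGTNTGC, the core of a HER2 motif named in the study, on either strand, and none was found in these windows.
MXRA8, chr1:1296365-1296564, plus strand: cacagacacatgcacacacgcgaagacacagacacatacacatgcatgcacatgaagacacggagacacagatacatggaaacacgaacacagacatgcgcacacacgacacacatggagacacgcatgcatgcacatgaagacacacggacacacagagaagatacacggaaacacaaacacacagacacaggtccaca
PRDX6, chr1:173450916-173451115, plus strand: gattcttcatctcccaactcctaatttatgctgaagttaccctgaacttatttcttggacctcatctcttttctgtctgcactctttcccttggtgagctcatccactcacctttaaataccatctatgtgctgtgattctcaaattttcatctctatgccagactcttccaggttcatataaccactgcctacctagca
RALGDS, chr9:135999518-135999717, plus strand: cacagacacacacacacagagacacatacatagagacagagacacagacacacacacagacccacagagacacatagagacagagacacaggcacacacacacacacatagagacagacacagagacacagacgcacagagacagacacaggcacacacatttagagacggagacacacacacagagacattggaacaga
The MXRA8 locus lay 2530 bp and the RALGDS locus 2991 bp upstream of the representative start, and the PRDX6 locus lay 4542 bp downstream, where the window overlapped an exon of PRDX6 outside the UTRs. T made up 7% and 4.5% of the bases at MXRA8 and RALGDS and 37% at PRDX6. The letters GAGACA occurred 2 times at MXRA8, 11 times at RALGDS and 0 times at PRDX6. Within its list, the MXRA8 peak had a score of 42, 198, 40.5 and 213.5 in the order SKBR3 vehicle, SKBR3 EGF, BT474 vehicle and BT474 EGF, ranks 863, 673, 6602 and 1843.

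Chosen after these sequences were seen, GAGACA was counted on both strands within 50 bp of the midpoint of every peak. It was present at 28.6% (10 of 35), 18.9% (7 of 37), 13.9% (19 of 137) and 19.3% (75 of 388) of HER2 peaks in members, against 7.88% of windows of the same length at the centres of all members. The peaks in members include those at the loci from which GAGACA was chosen, so their shares are no separate evidence for it. At distal H3K4me1 regions the shares were 23.3%, 23.2%, 11.9% and 16.9%, against 7.64% of central windows. The core CGTNTGC was present at 5.71% (2 of 35), 8.11% (3 of 37), 9.49% (13 of 137) and 5.93% (23 of 388) of peaks in members, against 1.26% of central windows. The study had found this core de novo in HER2 peaks of the same lines. A higher share at peaks than at central windows was therefore built in and is no separate evidence. In distal regions it was present at 2.22%, 13.6%, 17.3% and 10.7% of peaks. In BT474 the member intervals were 5.63 to 15.6% after vehicle and 3.98 to 8.74% after EGF. The distal intervals were 13.7 to 21.6% and 8.98 to 12.7%. They overlapped the member intervals after vehicle only, but the lists differed in length (137 and 388 peaks in members). No effect of EGF can be read from this. Peaks outside common regions held the core at 3.48%, 11.96%, 11.8% and 7.38%, in the same order of lists. In BT474 these shares lay inside the member intervals and below the distal intervals. In SKBR3 they lay inside both.

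Covered starts with a HER2 peak within 2 kb were ranked by the number of lists. TGFB2, a growth factor of the TGF beta family, had a peak 149 bp downstream of its start in the SKBR3 vehicle and BT474 EGF lists. B4GALT3, a galactosyltransferase (188 bp), PROCA1 (470 bp), EFNA3, an ephrin ligand (884 bp), and CALML5, a calmodulin-like protein of skin (1308 bp), had peaks in both BT474 lists. BRINP3 (5 bp), ADAMTS4 (89 bp), SEPTIN12 (107 bp), CATSPERE (145 bp, upstream) and SMIM10L1 (191 bp) were in 1 list each. Scores of these peaks ranked 135 of 2596 for TGFB2 in the SKBR3 vehicle list and 28493 of 29326 for SMIM10L1 in the BT474 EGF list, near the top and the bottom of those lists.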

How the data were processed

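H3K4me1 ChIP-seq in SKBR3 and BT474 (2 libraries per line) and HER2 ChIP-exo (vehicle or EGF, 1 list per line and treatment) were used. Inputs and T47D cells were not analysed here. The processing notes of the submitters name BWA 0.5.9, MACS 1.4.1, SICER 1.1 and GRCh37, whereas the methods of the study name another aligner and peak caller version. The H3K4me1 files hold, as deposited by the authors, islands built from 200 bp windows with raw read counts per island. The HER2 files hold peaks with a score that the authors deposited, whose scale is not stated and which was compared only within a list. Depth behind the HER2 lists is unknown.

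Start sites were taken from GENCODE 44 lifted to GRCh37, chromosomes 1 to 22 and X. The representative start was the MANE Select transcript (18878 genes), otherwise the canonical (600) or most 5' transcript (278), and all 89007 protein-coding transcripts were used for membership. Cover was intersected base by base with Python 3.11.15, and shares were given with 95% Wilson intervals. Islands overlapping in any library were merged, and counts were summed and tested with edgeR 4.0.16 (quasi-likelihood, TMM, Benjamini-Hochberg adjustment), with DESeq2 1.42.0 as an alternative. The functions were tested on simulated data. Replicate numbers did not pair the libraries. Named genes were a fixed list, the genes of the 5 widest members, up to 10 covered starts with HER2 peaks, the 5 largest ratios in each direction and up to 4 genes of each list. Members, lists and tests were chosen with earlier results of these data known. OR4M2 and its copy OR4M2B, like other near-identical genes, are uncertain. Some genes and 1 locus that these rules chose are not reported here.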

Additional observations from a re-analysis of the deposited data

Results flagged for a closer look

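The cover at the start was set against the cover 5 kb upstream in each library, and the lines moved in opposite directions. In SKBR3 the start was below the upstream level in both libraries (10.5% against 16.3%, and 12.4% against 17.1%), a mean difference of -5.22 percentage points. In BT474 it was slightly above it in both libraries (15.9% against 15.0%, and 14.8% against 14.4%), a mean difference of 0.612 percentage points. An exact two-sided permutation test of the difference between the lines gave p = 0.333, the smallest p that 2 libraries against 2 allow.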

How the results depend on the processing

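Of 135 alternative values of the main results, 21 moved and 114 were close to the values reported. Counts were called close within a fixed fold limit, and other values within the SD between replicates of a line. Counts and cover ratios cannot change sign, so a reversal was possible for the CpG difference alone, and it did not reverse. Keeping only islands at or above the median read density of their library left 4016 members, 319 covered starts, 523 flanked on both sides, 1122 downstream only and 2909 with any region, with cover at the start at 0.280 of the downstream maximum (0.318 as reported, mean of 4 libraries) and the downstream maximum 1.20 times the upstream one (1.33 as reported). With the most 5' start of each gene these were 0.395 and 1.27. A flank limit of 1 kb gave 1052 starts flanked on both sides and 1759 downstream only. The CpG difference of 0.515 ranged from 0.463 to 0.504 when single libraries were left out. HER2 peaks at or above the median score of their list numbered 18, 22, 70 and 198 in members. In the line comparison, 19735 regions with at least 100 reads in every library gave 6709 higher in SKBR3 and 6609 in BT474. Among the 5726 of them with a member, 1760 were higher in SKBR3 and 2098 in BT474. Counting missing islands as 0 gave 25139 and 39507 (2099 and 3126 with a member), with medians of -0.63 over all regions and -0.15 with a member. With a replicate block 2506 and 3510 of 10264 regions with a member were called higher in SKBR3 and in BT474, against 11611 and 11162 of all 37219. The replicate numbers did not deviate together (r = -0.04 over 37219 regions, a correlation across regions). At an unadjusted p under 0.05, 24515 regions passed. Of 362 further values, 266 stayed the same and 40 moved. Among the ratios of SKBR3 over BT474 scaled to regions within 1 Mb, 19 lost and 21 gained an adjusted p under 0.05 (edgeR). The other 16 of the 362 values reversed, all of them such scaled ratios. These log2 ratios became -0.11 at MAP3K13, 0.062 at B4GALT3, 0.12 at ADAMTS4, -0.042 at ACLY, 0.0035 at BRAF, -0.29 at TRIB1, -0.23 at ELF3, 0.055 at GRHL2 and -0.71 at KRT19. They became -0.39 at SPARC, -0.21 at INS, -0.068 at TNNT2, -0.46 at SQLE, 0.18 at INSIG1, -0.20 at KMT2A and -0.23 at KRT15. The cause was not tested. Among the lists, ERBB receptors, solute carriers and EGF family ligands changed side of the all-gene share under at least 1 alternative. The line comparison covers regions with an island in every library.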
